A study of Mus musculus with 19 samples.

Results

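Most of the genes described here make ribosomes or belong to the helicase family that remodels RNA, and a few of other roles share their names. They were taken by gene symbol: every gene on the array named Nop, Nol, Utp, Rrp, Exosc or Ddx with a number, every subunit gene named Polr1, and Ftsj3, Mphosph6, Ncl, Npm1 and Fbl. The rule gave 72 genes, measured by 93 probes, out of 9834 genes with a gene symbol of their own and 16148 features in all. The cells were FDCPmix, a mouse line of multipotent blood progenitors that depends on interleukin-3. The sample titles add the words ES cell line without saying what they refer to.

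Each 2-colour array paired the RNA of a tamoxifen-treated sample, called its own RNA here, with a reference RNA. There were 4 arrays of treated cells with no stated time against non-treated cells. The time course held 4 arrays each at 3 h, 7 h and 12 h and 3 arrays at 23 h, and its reference was treated cells at 0 h, which all 4 times share. The labels name no allele, transgene or receptor fusion in any of these cells, and they do not say whether arrays of a group came from separate cultures, so p-values measure only the spread between these arrays. Tamoxifen is a ligand of the oestrogen receptor, often used to switch on receptor fusion proteins.

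Ribosomes are assembled in the nucleolus. RNA polymerase I copies the ribosomal DNA, small nucleolar RNPs guide chemical marks onto the transcript, and large sets of assembly factors and helicases fold and cut it into the RNAs of the small and the large subunit. The exosome trims the ends of the products and destroys the waste. In dividing progenitors many of these genes are strongly expressed, and their transcription often follows growth signals and Myc proteins, which bind the letters CACGTG.

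All values are log2 ratios of own RNA over reference RNA after each array was centred on its median, if the deposited base is 2. The direction is likely rather than settled. On 18 of 19 arrays a repeated extreme value had the sign of the dye that carried the own RNA, positive in Cy5 and negative in Cy3, as turned columns would give, and own RNA is the numerator only if the floored channel is Cy3. On 7 h replicate 4 that sign was opposite to the dye label, and all 7 of its rank correlations with time-course arrays of the same dye were negative, from -0.235 to -0.029. Replicate 3 at 23 h had a deposited median of 0.233, and its 7 rank correlations with time-course arrays of the other dye were negative, from -0.259 to -0.0054. Negative values between dyes were not confined to it. Within 12 h the pairs of opposite dye ran from -0.202 to -0.047, against 0.484 for replicates 1 and 2 of the same dye. Within 3 h the pairs of opposite dye ran from 0.055 to 0.091. Replicate 4 at 7 h and replicate 3 at 23 h were kept, and results that rest on them are also given without them. Between 68 and 72 of the genes had a value on each array, and precision is limited by how few arrays each group has.

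The bases before the start of 3 genes are shown because these genes had the smallest unadjusted p-values of the 72, Mphosph6 in the treated cells, Nop58 at 3 h and between 23 h and 3 h, and Ftsj3 at 12 h. Each run is the 250 bases before the transcript start used for the gene's promoter, 5′ to 3′ on the strand of the gene, from RefSeq on build GRCm38.p6. Mphosph6 is at chr8:117801975-117802224 on the minus strand, Nop58 at chr1:59684756-59685005 on the plus strand and Ftsj3 at chr11:106256085-106256334 on the minus strand. The RefSeq gene record of Nop58 begins earlier, at base 59684961, so that the last 45 bases of its run lie inside the gene. Capitals mark ACGTG on either strand.
Mphosph6: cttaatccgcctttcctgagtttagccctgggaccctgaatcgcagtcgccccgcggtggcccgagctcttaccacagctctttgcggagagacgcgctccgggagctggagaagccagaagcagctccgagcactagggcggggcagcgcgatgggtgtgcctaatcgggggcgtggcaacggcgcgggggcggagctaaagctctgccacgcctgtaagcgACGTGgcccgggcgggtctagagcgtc
Nop58: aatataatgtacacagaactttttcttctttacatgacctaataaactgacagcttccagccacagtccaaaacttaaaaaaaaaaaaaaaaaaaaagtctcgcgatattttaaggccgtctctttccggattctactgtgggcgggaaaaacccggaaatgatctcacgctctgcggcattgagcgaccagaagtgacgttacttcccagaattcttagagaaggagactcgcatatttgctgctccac
Ftsj3: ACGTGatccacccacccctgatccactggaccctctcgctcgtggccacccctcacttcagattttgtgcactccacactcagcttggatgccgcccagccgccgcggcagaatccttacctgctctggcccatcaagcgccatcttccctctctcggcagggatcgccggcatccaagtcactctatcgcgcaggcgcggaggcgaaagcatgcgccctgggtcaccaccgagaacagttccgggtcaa
The letters ACGTG, searched on both strands and contained in CACGTG, lay in this window in 39.0% of the 59 members that had a RefSeq promoter entry, against 18.5% of the 27025 genes in the promoter table. The full CACGTG lay in 8 of the 59 (Ddx4, Ddx42, Ddx5, Exosc5, Nol11, Nop2, Rrp7a and Utp25), or 13.6%, against 6.86% of all genes. Mphosph6 held ACGTG 27 bases before its start and Ftsj3 at the far end of the window, 250 bases before it, and Nop58 did not hold these letters in this window. A match is only a run of letters, and these shares were not tested.

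No member passed an adjusted p of 0.05 in any of the 7 comparisons, in limma with Benjamini-Hochberg adjustment over all tested features. All features gave 0 calls in the treated cells, at 3 h, 7 h and 23 h, between 23 h and 3 h and over all times, and 3 at 12 h (0.0186%), none of them a member. At an unadjusted p under 0.05 there were 3 of 70 tested members in the treated cells (6.21% of all features), 9 of 71 at 3 h (10.8% of all features), 5 of 72 at 7 h (7.04%), 8 of 72 at 12 h (6.25%) and 2 of 72 at 23 h (3.35%). The members' shares were 4.29%, 12.7%, 6.94%, 11.1% and 2.78% in the same order, and the widest gap to all features was at 12 h. The 12 h count was not stable: it was 2 members with all 19 arrays in 1 fit and 19 with array weights. The whole group barely moved. Its median log2 ratio was 0.017 in the treated cells, 0.047 at 3 h, -0.0066 at 7 h, 0.0063 at 12 h and -0.011 at 23 h, and the number of members above 0 was 39 of 70, 44 of 71, 33 of 72, 38 of 72 and 31 of 72. Over all features 52.1%, 50.0%, 49.4%, 51.1% and 50.5% were above 0. The members differed more between arrays in the treated group, with a median SD of 0.257, than in the time course, where it was 0.132 to 0.166. Ddx31 and Nop16 (1 treated array each) and Exosc7 (2 arrays at 3 h) had too few values to be tested there.

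**Figure D1:**
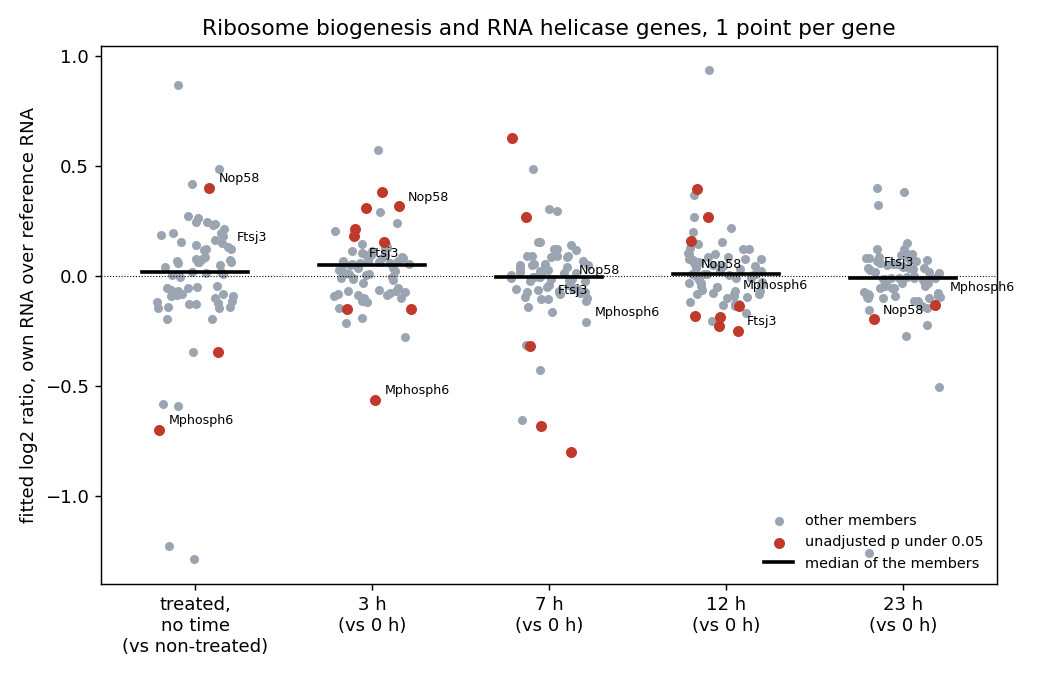
Each point is 1 of the 72 genes and its height is the fitted log2 ratio of own over reference RNA, for treated cells against non-treated cells and for 3 h, 7 h, 12 h and 23 h against 0 h. Black bars are the medians, from -0.011 to 0.047, and red points had an unadjusted p under 0.05, which was 3, 9, 5, 8 and 2 genes; Mphosph6 stands low and Nop58 high in the treated cells and at 3 h.

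Mphosph6 encodes a protein that binds the nuclear exosome and is needed to finish an RNA of the large subunit, as known from human cells. In the treated cells its log2 ratio was -0.60, -0.49, -0.96 and -0.74 on replicates 1 to 4, and at 3 h it was -0.58, -0.61, -0.55 and -0.51. All 8 of these arrays lay below 0, with both dyes in each group and a different reference for each group. Arrays on 1 side of 0 within a group were part of the rule that named Mphosph6 there. At 7 h the values were -0.32, -0.14 and -0.90 on replicates 1 to 3 and 0.53 on replicate 4, at 12 h they were 0.15, 0.18, -0.27 and -0.40, and at 23 h they were -0.02, -0.28 and -0.06. The 12 h arrays split by dye: both with own RNA in Cy5 lay above 0 and both with it in Cy3 below. The mean was -0.70 in the treated cells (SD 0.202, SE 0.104, n = 4, adjusted p = 0.792) and -0.56 at 3 h (SD 0.0447, SE 0.162, n = 4, adjusted p = 0.425). Neither passed the adjusted test, and the lowest adjusted p-values in the other fits came from settings that change the spread. With all 19 arrays in 1 fit, which lends the treated arrays the calmer spread of the time course, the treated value had an adjusted p of 0.0196. With the sign of 7 h replicate 4 turned, a choice made after the data were seen, Mphosph6 had an adjusted p of 0.0313 at 3 h and averaged -0.47 at 7 h (SE 0.0893, adjusted p = 0.0384). Without that replicate and 23 h replicate 3 it averaged -0.50 at 7 h (SE 0.111, adjusted p = 0.0963). With all Cy3 arrays turned the other way, the treated value was 0.15 and the 3 h value -0.033.

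Nop58 is a core protein of the box C/D small nucleolar RNPs, which guide methylation of ribosomal RNA. It had log2 ratios of 0.53, 0.47, 0.33 and 0.26 in the treated cells and of 0.23, 0.45, 0.33 and 0.25 at 3 h. All 8 arrays lay above 0, against a different reference in each group. At 7 h it had 0.077, 0.058 and 0.057 on replicates 1 to 3 and -0.26 on replicate 4, at 12 h 0.062, -0.096, 0.14 and -0.073, and at 23 h -0.33, -0.11 and -0.16 on replicates 1, 3 and 4. The 23 h and the 3 h arrays did not overlap. They lay on opposite sides of 0, as for 1.95% of all features and 1.41% of the 71 tested members, Nop58 alone. The mean was 0.40 in the treated cells (SE 0.0955, n = 4, adjusted p = 0.792), 0.32 at 3 h (SE 0.0689, n = 4, adjusted p = 0.425) and -0.20 at 23 h (SE 0.0804, n = 3, adjusted p = 0.9997). The difference of 23 h minus 3 h was -0.51 (SE 0.106, adjusted p = 0.869), and the test over all 4 times gave an adjusted p of 0.756. Nop58 had the smallest unadjusted p of the members in both of these tests, and neither passed after adjustment. With all 19 arrays in 1 fit the treated value had an adjusted p of 0.00807. Without 23 h replicate 1 the 23 h value was -0.11. Without both arrays in doubt it was -0.24 (adjusted p = 0.373) and the difference of 23 h minus 3 h was -0.56. With the Cy3 arrays turned the 3 h value was 0.028 and the difference -0.032.

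With every array kept, the other nucleolar proteins that are abundant in every growing cell stayed near 0. Ncl, nucleolin, a histone and RNA chaperone, had means of -0.052, -0.071, 0.087, -0.12 and -0.075 in the treated cells and at 3 h, 7 h, 12 h and 23 h. Npm1, nucleophosmin, which shuttles ribosomal particles, had -0.090, -0.11, 0.055, -0.030 and -0.10 in the same order. Fbl, the methyltransferase of the box C/D particles, had 0.12, -0.071, -0.012, 0.078 and -0.056, and Nop56, the partner of Nop58 in them, had 0.049, -0.067, 0.15, -0.012 and -0.14. The standard errors of these means were 0.0840 to 0.131, and none had an unadjusted p under 0.05 (Nop56 at 7 h came nearest, with an adjusted p of 0.740). At 3 h Nop56 and Fbl averaged below 0 and Nop58 above it, while in the treated cells all 3 averaged above 0 and at 23 h all 3 below. No test of a gap between these genes was made. At 23 h Nop56 had -0.38, 0.26 and -0.25 on replicates 1, 3 and 4, and without replicate 3 it averaged -0.32 (adjusted p = 0.198 without both arrays in doubt). Ncl had -0.15, 0.20 and -0.30 on the same replicates. Without both arrays in doubt Ncl averaged -0.23 at 23 h (adjusted p = 0.554), Fbl -0.15 and Npm1 -0.11. Nop56 and Ncl then had an unadjusted p under 0.05. Nop10, a small core protein of the H/ACA particles that guide pseudouridylation, had -0.34, -0.73, -0.061 and -0.15 at 7 h and -0.22, -0.19, -0.17 and -0.33 at 12 h. Every array of both times lay below 0, while at 3 h the values ran from -0.21 to 0.26 and at 23 h from 0.00 to 0.15. The means were -0.32 at 7 h (SE 0.0965, adjusted p = 0.629) and -0.23 at 12 h (SE 0.0965, adjusted p = 0.770). Without 7 h replicate 2 the 7 h mean was -0.18, with the sign of 7 h replicate 4 turned it was -0.24, and without both arrays in doubt it was -0.38 (adjusted p = 0.273).

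**Figure D2:**
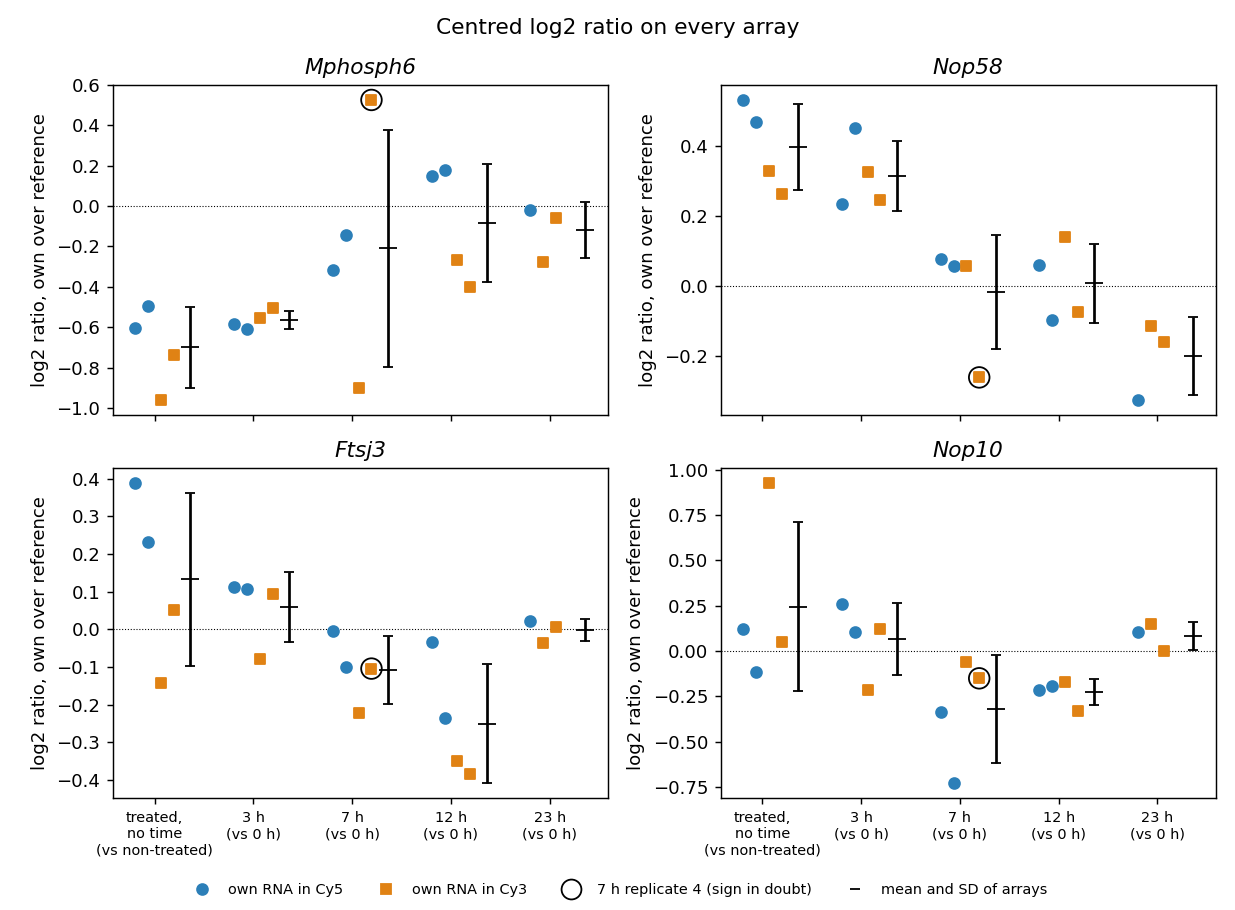
Points are the centred log2 ratios of Mphosph6, Nop58, Ftsj3 and Nop10 on every array, with circles for own RNA in Cy5, squares for own RNA in Cy3 and a ring round 7 h replicate 4; black bars are the mean and SD of the arrays of a group. Mphosph6 lies between -0.96 and -0.49 and Nop58 between 0.23 and 0.53 on the 8 arrays of treated cells and of 3 h.

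Among the members, RNA polymerase I was represented by Polr1a, its largest subunit, and by Polr1c and Polr1d, which it shares with RNA polymerase III. At 23 h all 3 lay above 0, with a median of 0.086. Of 8 other genes for transcription of ribosomal DNA, Twistnb and Znrd1 among them, 4 lay above 0 at 23 h (median -0.0052). Polr1a had 0.21, 0.38 and 0.37 there, every array above 0 (mean 0.32, SE 0.170, adjusted p = 0.9997, and 0.29 without both arrays in doubt), but 0.18, 0.28, -0.086 and -0.10 at 3 h. Without 23 h replicate 1, 2 of the 3 genes lay above 0. Polr1d had 0.17, 1.11, 0.46 and -0.17 at 12 h (mean 0.39, SE 0.143, adjusted p = 0.699), with replicate 4 on the other side of 0. In the treated cells the subunits spread widely. Polr1a had 0.26, -0.76, 0.68 and 1.77 there, and Polr1d had -0.60, 1.15 and -2.29 on replicates 2, 3 and 4, so neither mean says more than its spread.

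Of the 17 small subunit factors, which build the processome on the nascent transcript, 13 lay above 0 at 3 h, with a median of 0.056, and 10 of 17 did in the treated cells (median 0.015). Without treated replicate 4 the treated count was 6 of 17 (median -0.019). The 3 h count was 11 of 17 with the Cy3 arrays turned and 11 to 14 under every alternative tried. Members with an unadjusted p under 0.05 at 3 h pointed both ways. Rrp12, a factor that takes part in export of the small subunit precursor, had 0.26, 0.47, 0.026 and 0.090 (mean 0.21, SE 0.0853, adjusted p = 0.443), and without replicate 2 its mean was 0.11. Ddx52, the helicase known in yeast as Rok1, had -0.088, -0.14, -0.10 and -0.28 (mean -0.15, SE 0.0535, adjusted p = 0.425). Nol10, whose yeast counterpart is a processome protein, had -0.062, -0.13, -0.34 and -0.084 (mean -0.15, SE 0.0680, adjusted p = 0.462). Every array of these 3 genes lay on the side of its mean, which was part of the rule that named them. At 3 h 21.6% of all features had every array on 1 side of 0.

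At 7 h the small subunit factors held the largest values of the group that were on 1 side of 0 on every array. Nop9, an RNA-binding protein with Pumilio repeats, had 0.57, 0.91, 0.47 and 0.56 (mean 0.63, SE 0.190, adjusted p = 0.629). Utp23, a processome protein, had -1.99, -0.035, -0.049 and -1.13 (mean -0.80, SE 0.290, adjusted p = 0.659). Replicates 2 and 3 of Utp23 were close to 0, and without replicate 1 its mean was -0.41. With the sign of 7 h replicate 4 turned, Nop9 averaged 0.35 (adjusted p = 0.673) and Utp23 -0.24 (adjusted p = 0.909). Without both arrays in doubt, Nop9 averaged 0.60 (adjusted p = 0.111) and Utp23 -0.63 (adjusted p = 0.645). In the treated cells the same gene pair had other values: Nop9 had -0.72, -0.64, 0.13 and -0.16 (mean -0.35, SE 0.108, adjusted p = 0.793), with 1 of 4 arrays above 0, and Utp23 ran from -3.94 to 1.73. At 23 h Utp20, a scaffold of the processome, had a mean of -0.13 (SE 0.0503, n = 3, adjusted p = 0.9997), with arrays from -0.24 to 0.0070, and -0.18 (adjusted p = 0.370) without both arrays in doubt. Rrp7a, another small subunit factor, showed how far 1 array could carry a mean: in the treated cells it had -0.59, 4.15, -0.47 and 0.37, and its mean of 0.87 had an SE of 0.858.

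Among the 17 large subunit factors, 8 of 15 tested lay above 0 in the treated cells, 11 of 17 at 3 h, 7 at 7 h, 10 at 12 h and 6 at 23 h, and their medians stayed between -0.0098 and 0.071. Ftsj3, a methyltransferase whose yeast counterpart acts on the large subunit precursor, had -0.034, -0.24, -0.35 and -0.38 at 12 h. All 4 lay below 0, against 0.11, 0.11, -0.079 and 0.094 at 3 h and 0.021, -0.035 and 0.0070 at 23 h. Its mean at 12 h was -0.25 (SD 0.158, SE 0.0518, n = 4, adjusted p = 0.336), and the test over all times gave an adjusted p of 0.756. The lowest adjusted p that Ftsj3 had at 12 h in any fit was 0.0840, and with the Cy3 arrays turned its mean was 0.12. Ddx56, a helicase known in yeast as Dbp9, had 0.16, 0.32, 0.046 and 0.19 at 3 h (mean 0.18, SE 0.0736, adjusted p = 0.450, and 0.11 without replicate 2), and its difference of 23 h minus 3 h was -0.26 (SE 0.113, adjusted p = 0.869). Nop16 had 0.33, 0.41, 0.50 and -0.015 at 3 h (mean 0.31, SE 0.114, adjusted p = 0.433). Nol12, known in yeast as an exonuclease of the large subunit pathway, had 0.36, 0.016, 0.69 and -0.011 at 7 h (mean 0.27, SE 0.0976, adjusted p = 0.659).

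Ddx55, a helicase of large subunit assembly, was the tested member farthest below 0 in the treated cells. Its arrays read -1.51, -0.044, -0.55 and -3.05 on replicates 1 to 4, all below 0 and widely spread, and its mean was -1.29 (SD 1.32, SE 0.521, n = 4, adjusted p = 0.793). Without replicate 4 the mean was -0.66 and without replicate 3 it was -1.91. With all 19 arrays in 1 fit the SE shrank to 0.295 and the adjusted p to 0.0249, because the spread was then shared with arrays of the time course, on which Ddx55 ran only from -0.28 to 0.089. In the time course its lowest mean was -0.14 at 12 h (adjusted p = 0.770).

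The exosome was represented by 9 genes, 7 of them for its ring and cap (Exosc1, Exosc2 and Exosc4 to Exosc8), with Exosc10, its nuclease, and Mphosph6. At 7 h all 9 lay below 0, from -0.43 for Exosc7 to -0.0060 for Exosc6, with a median of -0.085 and 0 of 9 at an unadjusted p under 0.05. No array could be left out without losing that count: 8 of 9 lay below 0 without replicate 1 or without replicate 2, and 7 of 9 without replicate 3 or without replicate 4. The median was -0.072 without replicate 3 and -0.028 without replicate 4, and with the sign of replicate 4 turned 5 of 9 lay below 0 (median -0.023). At 3 h, 3 of 8 tested lay above 0. The ring subunit Exosc4 had 0.12, 0.34, 0.071 and 0.081 (mean 0.15, SE 0.0692, adjusted p = 0.462, and 0.075 without replicate 2), and the cap protein Exosc1 had 0.28, 0.43, 0.81 and -0.0030 (mean 0.38, SE 0.171, adjusted p = 0.462). At 12 h the ring subunits Exosc6 and Exosc8 stood on opposite sides. Exosc6 had 0.47, 0.22, 0.26 and 0.12 (mean 0.27, SE 0.0764, adjusted p = 0.619), and Exosc8 had -0.16, -0.090, -0.21 and -0.27 (mean -0.18, SE 0.0600, adjusted p = 0.689). Exosc7 varied most between arrays. At 7 h they read -3.13, 0.63, 2.69 and -1.90, and at 23 h all 3 lay below 0 at -0.26, -1.82 and -1.82 (mean -1.26, SE 0.910, adjusted p = 0.9997).

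The remaining genes are helicases and other members that were grouped here under other roles, which does not exclude a part in making ribosomes. Of the 9 helicases of splicing and mRNA export, 8 lay above 0 at 3 h, with a median of 0.064, and Ddx42 (-0.21) was the exception. None of the 9 had an unadjusted p under 0.05 there, and 3 of 9 lay above 0 at 12 h. Ddx41, a helicase linked to splicing and to sensing of DNA, had -0.83, -0.52, 0.19 and -1.56 at 7 h (mean -0.68, SE 0.253, adjusted p = 0.659), and with the sign of replicate 4 turned its mean was 0.098. Ddx25, a helicase of mRNA export in the testis, had -0.42, 1.13 and -2.53 at 23 h and a mean of -0.51 (SE 0.577). Without both arrays in doubt it had the smallest adjusted p of the members at 23 h, 0.0914, with a mean of -1.48 (SE 0.298) from the 2 arrays that remain, -0.42 and -2.53. That SE comes from the spread shared by the remaining time-course arrays after the dye term, not from the gap between these 2. The arrays left out read 1.13 at 23 h and -2.89 at 7 h. Ddx4, the helicase of germ cells, had -0.034, 0.023, 0.40 and 0.25 at 12 h (mean 0.16, SE 0.0603, adjusted p = 0.719). The helicases of translation, decay and RNA sensing (Ddx1, Ddx3x, Ddx4, Ddx6 and Ddx59) had no other value with an unadjusted p under 0.05. The 6 members of other roles, Nol3, Nol4, Nol4l, Ddx11, Ddx28 and Ddx50, had none, and their means lay between -0.15 and 0.24.

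**Figure D3:**
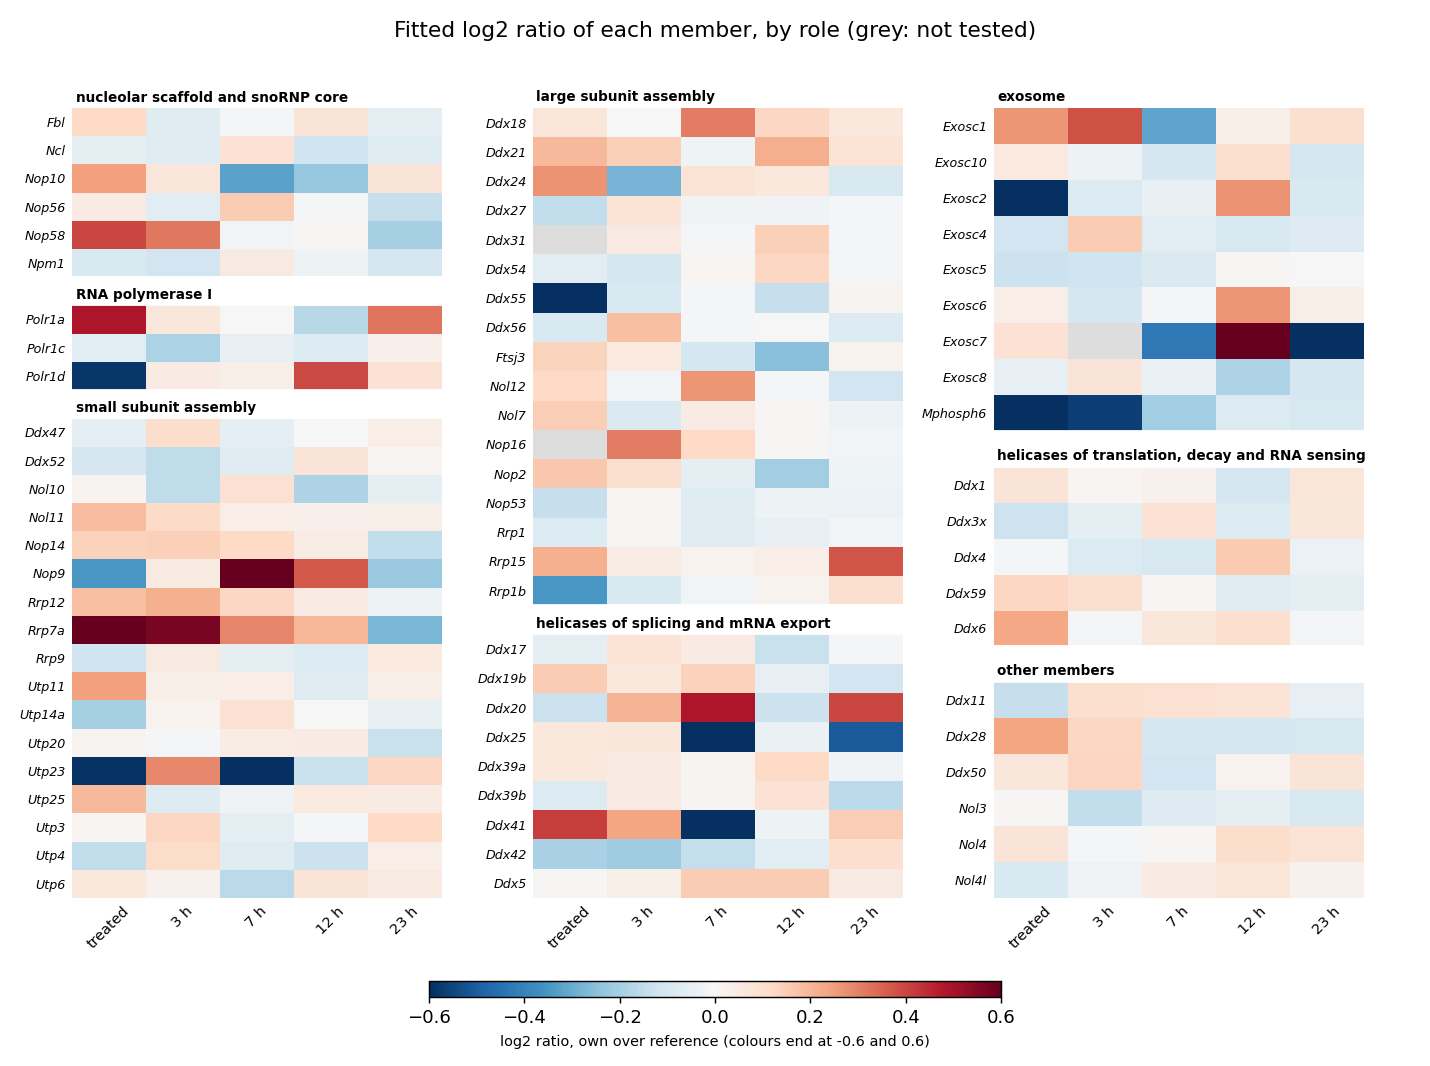
Colours give the fitted log2 ratio of own over reference RNA for each of the 72 genes (rows, by role) in treated cells against non-treated cells and at 3 h, 7 h, 12 h and 23 h against 0 h, with grey for genes not tested and the scale cut at -0.6 and 0.6. No column is of 1 colour: the members above 0 number 39, 44, 33, 38 and 31, and the exosome column at 7 h is the only role block of 9 genes on 1 side of 0.

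The difference between the late and the early end of the time course was measured directly. For 23 h minus 3 h, 31 of 71 tested members lay above 0, the median was -0.021, and 3 members had an unadjusted p under 0.05 (5.47% of all features), Nop58, Ddx56 and Exosc4, all lower at 23 h than at 3 h. Exosc4 had -0.25, 0.098 and -0.056 at 23 h (difference -0.23, SE 0.106, adjusted p = 0.869), and its difference was -0.13 without 23 h replicate 1 and -0.071 with 1 probe per gene. In the test for any difference among the 4 times, 6 of 70 members had an unadjusted p under 0.05 (6.59% of all features): Nop58, Ftsj3, Nop10, Exosc6, Ddx4 and Nop9, each with an adjusted p of 0.756. A count of arrays gives the same picture. Members whose arrays all lay on 1 side of 0 numbered 10 of 70 in the treated cells (14.4% of all features), 16 of 71 at 3 h (21.6%), 13 of 72 at 7 h (12.7%), 10 of 72 at 12 h (14.6%) and 14 of 72 at 23 h (19.6%). The members' shares were 14.3%, 22.5%, 18.1%, 13.9% and 19.4%, close to those of all features except at 7 h, where replicate 4 is in doubt. For 5 of 72 members (Exosc4, Exosc6, Nol7, Nop58 and Utp3) every array of one time lay on the opposite side of 0 from every array of another (7.3% of all features), a share of 6.94%. Nol7 and Utp3 are among them through 7 h, and would not be with the sign of 7 h replicate 4 turned.

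Another 73 genes of the same pathway, outside the naming rule, and 62 genes with symbols that begin with Rpl or Rps were set beside the members. The 62 are called ribosomal protein genes here. They include the kinase genes Rps6ka5, Rps6kb2, Rps6kc1 and Rps6kl1 and the binding protein gene Rps19bp1, which do not encode ribosomal proteins. At 3 h, 51 of 72 tested pathway genes lay above 0 (median 0.064). An unadjusted p under 0.05 was reached by 5 of the 72 (10.8% of all features), 4 above 0 and 1 below. These were Fcf1, a small subunit nuclease in yeast, with 0.20, 0.15, 0.37 and 0.21 (mean 0.23, SE 0.0571, adjusted p = 0.425), Dnttip2 (mean 0.21), Nat10, which acetylates ribosomal RNA (mean 0.26), and the helicase Ruvbl1, which helps to assemble small nucleolar RNPs (mean 0.52, 3 arrays), against Nolc1, a nucleolar chaperone of these RNPs (mean -0.22). With the Cy3 arrays turned 38 of 72 lay above 0. In the treated cells 49 of 73 lay above 0 (median 0.059), with Rsl24d1 at 0.37 and Dcaf13 at 0.40, but with the Cy3 arrays turned 33 of 73 did (median -0.022). At 7 h, 12 h and 23 h the counts were 35 of 73, 39 of 72 and 38 of 73. At 12 h Rcl1, a small subunit factor, had 0.75, 0.053, 1.89 and 0.58 (mean 0.82, SE 0.181, adjusted p = 0.370), and Pelp1, a large subunit factor, averaged 0.18. At 7 h Ruvbl1 averaged -0.57, Emg1 -0.16 and Mrto4 -0.15, and at 23 h Wdr18 averaged -0.27. All pathway genes named were chosen by an unadjusted p under 0.05 and every array on 1 side of 0. None had an adjusted p under 0.370. Such p-values were reached by 3 of 73 pathway genes in the treated cells (6.21% of all features) and 6 of 73 at 7 h (7.04%). At 12 h there were 4 of 72 (6.25%) and at 23 h 2 of 73 (3.35%).

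The ribosomal protein genes mostly encode proteins that these factors assemble, and they stood on the other side at 3 h. There 49 of 62 lay below 0 (median -0.082). On single arrays their median was 0.014, -0.082, -0.207 and -0.048 on 3 h replicates 1 to 4. Without 3 h replicate 3, 45 of 62 lay below 0 (median -0.061). At an unadjusted p under 0.05 there were 12 of 62 (10.8% of all features), 11 below 0 and 1 above. At 12 h 50 of 62 lay below 0 (median -0.087). Without 12 h replicate 4, on which the median of these genes was -0.31, 37 of 62 lay below 0 (median -0.017). At 7 h 33 of 62 lay below 0 (median -0.0095), against 45 of 62 without 7 h replicate 4 (median -0.043) and 22 of 62 without replicate 3 (median 0.015). At 23 h 37 of 62 lay below 0 (median -0.019), and 23 of 62 without replicate 1 (median 0.020). With the Cy3 arrays turned the medians turned to 0.036 at 3 h and 0.066 at 12 h. The members' median at 3 h stayed above 0 under every alternative tried, between 0.020 and 0.052. On single arrays it was 0.018 and 0.0375 on 3 h replicates 1 and 2, with own RNA in Cy5. On replicates 3 and 4, with own RNA in Cy3, it was -0.003 and 0, so the shift was seen with 1 dye only. No test of the difference between lists was made, and 44 of 71 members above 0 at 3 h set against 50.0% of all features is a description of these arrays.

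**Figure D4:**
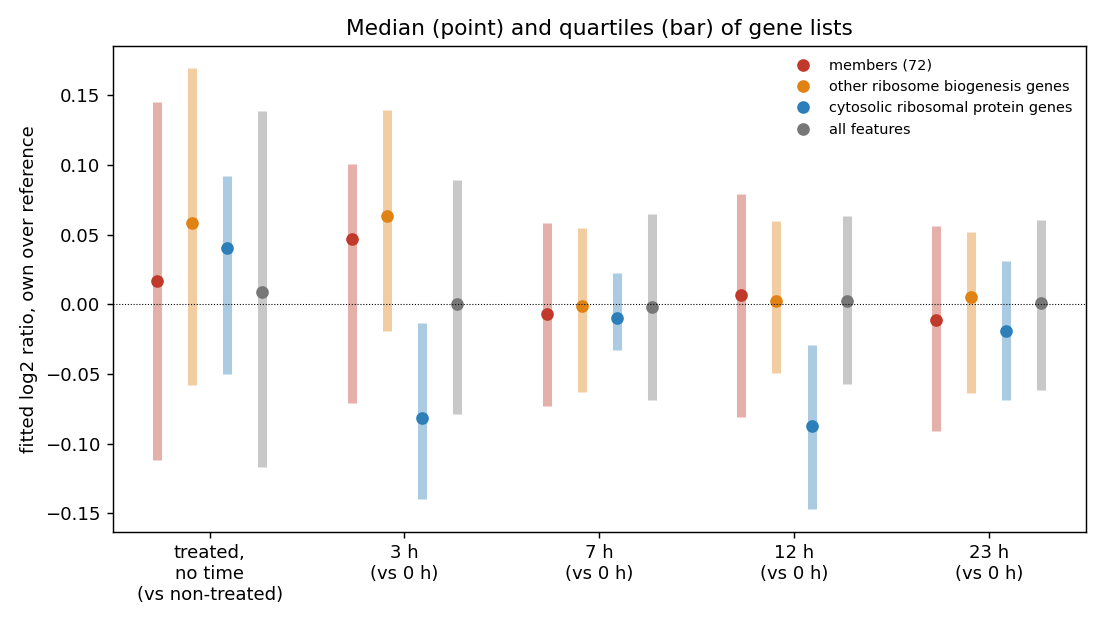
Points are medians and bars are quartiles of the fitted log2 ratios of the 72 members, of 73 other ribosome biogenesis genes, of 62 genes named Rpl or Rps and of all features. Groups are treated cells against non-treated cells and 3 h, 7 h, 12 h and 23 h against 0 h. The legend calls the 62 genes cytosolic ribosomal protein genes. At 3 h the members (0.047) and the pathway genes (0.064) lie above 0 and the ribosomal protein genes (-0.082) below, and at 7 h and 23 h all 4 medians lie within 0.02 of 0 with every array kept, while without 7 h replicate 4 that of the ribosomal protein genes at 7 h is -0.043.

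Markers of blood cell types were read as changes against the reference, since ratios do not show whether a marker is present. The neutrophil list (7 genes) had 5 of 7 below 0 in the treated cells (median -0.24), and 6 of 7 at 3 h (-0.14), 7 h (-0.17), 12 h (-0.37) and 23 h (-0.32). The progenitor list had 4 of 6 above 0 in the treated cells (median 0.045), 4 of 6 at 3 h (0.051), 5 of 6 at 7 h (0.029), 4 of 6 at 12 h (0.055) and 4 of 6 at 23 h (0.048). Of 3 erythroid genes, 0, 2, 1, 2 and 0 lay above 0 in the same order, and the medians of the 6 fibroblast genes ran from -0.081 to 0.031 and those of the 4 pluripotency genes from -0.21 to 0.12. The 1 monocyte gene measured lay below 0 in all 5 groups, from -0.73 to -0.16. In RNA from whole cultures, fewer cells of a type and less RNA per cell cannot be told apart, and the part of such shifts in the values of the members was not tested.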

How the data were processed

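Arrays with 20205 probes were hybridised with RNA labelled in Cy3 and Cy5, per the labels' protocols, which mention organs and pooled control animals; the reference was therefore taken from each channel's own label. The authors deposited 1 log ratio per spot, read here as log2. Neither base nor numerator nor normalization is given in the sources used here, and no spot intensities were used.

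From these values, each array was centred on its median, repeated extreme values (size over 15) were set to missing, and probes of 1 gene were averaged: 13891 probes had 1 symbol, 5 several and 6309 none. All 72 members matched RefSeq. The 15 members with several probes had probes of the same sign in 7 (treated cells), 4 (3 h), 7 (7 h), 11 (12 h) and 5 (23 h) cases. Features needed 3 arrays of a 4-array group, or 2 at 23 h. limma 3.58.1 in R 4.3.3 fitted the 4 treated arrays alone, since they vary more, and the 15 time-course arrays together, each with a dye term, leaving 2 and 10 residual degrees of freedom. P-values were adjusted by Benjamini-Hochberg over all tested features, with a threshold of 0.05. The script was tested on simulated data.

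Members and lists were chosen with earlier results of these data known. Named were members past the adjusted threshold, at most 8 per comparison with an unadjusted p under 0.05 and every array on 1 side of 0, and Ncl, Npm1, Fbl, Nop56, Nop58, Ddx55 and Ftsj3, with the exosome and RNA polymerase I as groups. For members named by the side of their arrays, that agreement between arrays was fixed by the choice. Members named outside this rule, such as Nop16, Polr1d, Exosc1, Exosc7, Rrp7a, Nol7, Utp3, Nol12, Ddx25 and Ddx41, were chosen after their values were seen. Samples shared replicate numbers, but the reported fits did not treat arrays of the same number as paired. Alternatives changed signs, weights, the dye term, centring, scaling, the missing values, the probe rule, the arrays in the fit and the replicate block, and left out arrays.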

Additional observations from a re-analysis of the deposited data

Results flagged for a closer look

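Among 35 named values examined, an array stood far from the other 3 of its group in 2 cases, where chance flags about 1 group in 20. Nop56 at 3 h had 0.102 on replicate 1, against -0.14 to -0.11 on the other replicates. Nop58 at 7 h had -0.261 on replicate 4, the array whose repeated extreme value disagrees in sign with its dye, against 0.057 to 0.077 on the other replicates.

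For 5 of 72 members (6.94%), every array of one time lay on the opposite side of 0 from every array of another, near the 7.3% of all features. Nop58 was lower at 23 h than at 3 h by a tested difference of -0.5128 (adjusted p = 0.869). Exosc4 was below 0 on all 12 h arrays and above 0 on all 3 h arrays, a difference of -0.2473 that was not tested on its own. Exosc6 was above 0 on all 12 h arrays and below 0 on all 3 h arrays, a difference of 0.3676, not tested on its own. Utp3, a processome protein, was below 0 on all 7 h arrays and above 0 on all 3 h and all 23 h arrays, a difference of -0.186 for 7 h minus 3 h and of 0.1823 for 23 h minus 7 h. Nol7 was below 0 on all 23 h arrays and above 0 on all 7 h arrays, a difference of -0.07784. These differences of Utp3 and Nol7 were not tested on their own. Both use 7 h replicate 4, whose sign is in doubt and which read -0.01 for Utp3 and 0.038 for Nol7. With its sign turned, neither gene has all its 7 h arrays on 1 side of 0. Without that replicate the other 7 h arrays keep their side.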

How the results depend on the processing

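Of 112 alternative counts of members past the adjusted threshold, 109 were 0, as in the fits reported. The exceptions were 3 members in the treated cells with all 19 arrays in 1 fit (Ddx55, Mphosph6 and Nop58) and 1 member, Mphosph6, both at 3 h and at 7 h with the sign of 7 h replicate 4 turned. Leaving out each array in turn gave 0 to 0 members in the treated cells, at 3 h, 7 h, 12 h and 23 h and between 23 h and 3 h, and this was not run for the test over all times. The correlations gave no sign that shared numbers pair the arrays. Their mean was 0.0275 for arrays of the same number and 0.0470 for arrays of the same dye with another number. Of 15 arrays, 5 correlated best with their own number. Correlations this weak cannot exclude shared cultures. With a replicate block in the time course, 0 members were called. Members with an unadjusted p under 0.05 numbered 2 to 11 in the treated cells against 3 reported, 3 to 10 at 3 h against 9, 4 to 6 at 7 h against 5, 2 to 19 at 12 h against 8, 1 to 7 at 23 h against 2, 1 to 8 between 23 h and 3 h against 3 and 4 to 9 over all times against 6. The 12 h extremes came from all 19 arrays in 1 fit and from array weights, and the 23 h highest from leaving out replicate 3. With the Cy3 arrays turned, 19 of 47 named values took the opposite direction. Of these, 12 were among the 26 values of Ncl, Npm1, Fbl, Nop56 and Nop58 that were named whatever their size, between -0.12 and 0.15 as reported, and 7 were among the other 21: Mphosph6 0.1512 and Ddx55 0.5125 in the treated cells, Ddx52 0.0395 and Nol10 0.05825 at 3 h, and Ftsj3 0.116, Exosc8 0.05625 and Nop10 0.024 at 12 h. That alternative sets values chosen for lying on 1 side of 0 against each other by construction. The number of arrays limits every value, and signal over background is not known here.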
